A study of Mus musculus with 19 samples.

Results

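The genes described here fold, modify, move and dispose of proteins made at the endoplasmic reticulum (ER), or sense and answer ER stress. The set was defined by name from these functions, and 47 of its 47 members were found by symbol among the 27179 genes of the expression table. They fall into 13 chaperones and folding helpers, 4 disulfide isomerases, 9 members of ER-associated degradation, 10 of translocation and signal peptide cleavage, 4 of N-glycosylation, 1 vesicle coat protein, and 6 stress sensors and transcription factors. All 47 passed the filter on low values that left 14186 genes for testing. The data are bulk RNA-seq of splenocytes from 19 mice of the model with 4 core genotypes (FCG), in which gonads and sex chromosomes are inherited apart. In this model the Y chromosome lacks Sry, and gonadal males have the gene from a transgene on chromosome 3. The 4 groups were XXF and XYF, gonadal females with XX or XY chromosomes (5 and 4 mice), and XXM and XYM, gonadal males carrying the transgene (5 and 5 mice). The males of the colony carried the transgene Tg(Sry)2Ei and the Y deletion Sry dl1Rlb on a B6 background (B6.Cg, ArnoJ) and were bred to C57BL/6J females. Every mouse had been given heat-killed Streptococcus pneumoniae of strain R36A (HKSP) into the peritoneum, and its splenocytes were collected a week later after lysis of red cells. With every group immunized, the data hold no measure of the change from the unimmunized state, and no age is stated for the sequenced mice. The table carries 1 column per mouse, with titles that number the female mice in 1 series and the male mice in another. The XXM titles share an added word that the others lack, and the running numbers in the titles follow the groups, so sample order and group cannot be told apart.

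Library sizes ran from 11263753 to 19962022 reads. Expression is given as log2(RPKM + 1), where RPKM is reads scaled by gene length in kilobases and by library size. The least-covered member, Trib3, had 15 reads in its lowest mouse, and Hsp90b1 had 33865 in its highest. Values for single mice are listed in the order F1, F2, F3, F4 and F5 for XXF, F6, F7, F8 and F9 for XYF, 2, 5, 6, 7 and 8 for XXM, and 12, 13, 15, 16 and 9 for XYM. A member is called when limma gave a Benjamini-Hochberg adjusted p under 0.1 over all 14186 genes and the difference was over 1.5-fold. Differences on this log scale understate changes of weakly expressed genes.

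Secreted and membrane proteins enter the ER through the Sec61 channel, lose their signal peptide, receive N-linked sugars and are folded by chaperones and disulfide isomerases, while misfolded chains are pulled back and degraded in the cytosol. When unfolded chains build up, the sensors Ern1 (IRE1), Eif2ak3 (PERK) and Atf6 start the unfolded protein response, which raises chaperone and degradation genes through Xbp1, Atf6 and Atf4. In the spleen this machinery is best known from plasma cells, which enlarge their ER to secrete antibody.

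Many genes of the response share the ER stress element, CCAAT, then any 9 bases, then CCACG, which is bound in ER stress by Atf6 and Xbp1 together with NF-Y. The members were chosen by function and not by sequence, but they include genes of this response, so a high share is built into the choice. The element is shown as a description and is no independent support for the set. In the RefSeq promoters (GRCm38.p6, 250 bases before to 50 after the gene start), 37 of the 47 members had an entry, with 42 windows among them. Searched on both strands, the element occurred in 9 of these 37 members (24.3%), against 37 of the 27025 genes in the table (0.137%) and 39 of its 32851 promoters (0.119%). Among genes on the plus strand it lay in Hspa5 (chr2:34772020-34772048), Derl3 (chr10:75893237-75893265), Pdia6 (chr12:17266486-17266514), Dnajc3 (chr14:118937822-118937850), Creld2 (chr15:88819515-88819543) and Syvn1 (chr19:6046527-6046555). Among genes on the minus strand it lay in Calr (chr8:84847070-84847098), Hsp90b1 (chr10:86705633-86705661), Hsp90b1 (chr10:86705528-86705556) and Canx (chr11:50325795-50325823), where Hsp90b1 held a farther and a nearer match. The first base of the match lay between 44 bases (Syvn1) and 212 bases (Hsp90b1) before the gene start. Each match is given with 5 bases on either side, 5′ to 3′ on the strand of the gene, with the fixed letters in capitals. In Calr, Derl3, Creld2 and the nearer match of Hsp90b1 the element reads on the opposite strand, so its complement is seen.
Hspa5: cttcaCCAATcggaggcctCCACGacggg
Calr: caacgCGTGGtcgaccctcATTGGcccat
Derl3: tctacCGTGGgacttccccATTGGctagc
Hsp90b1, farther match: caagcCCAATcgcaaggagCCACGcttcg
Hsp90b1, nearer match: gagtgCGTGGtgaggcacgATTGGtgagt
Canx: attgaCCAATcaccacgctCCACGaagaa
Pdia6: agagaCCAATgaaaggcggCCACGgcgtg
Dnajc3: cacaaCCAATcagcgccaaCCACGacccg
Creld2: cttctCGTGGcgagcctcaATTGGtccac
Syvn1: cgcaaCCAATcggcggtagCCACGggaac

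The related ER stress element II, ATTGG, any base, then CCACG, was found in 2 of the 37 members (5.41%) and in 12 of all 27025 genes (0.0444%). They were Herpud1 (chr8:94386372-94386392, plus strand) and Dnajb11 (chr16:22857847-22857867, plus strand). The core TGACGTGG, bound by Xbp1 and Atf6, occurred in 1 member, Sec24d (chr3:123267465-123267482, plus strand), and in 193 genes (0.714%). The Sec24d match lies inside the gene, which begins at base 123264801, in the window of a later start. The amino acid response core, through which Atf4 acts and which reads TTGCATCA on the complementary strand, occurred in 1 member, Herpud1 (chr8:94386312-94386329, gene on the plus strand, core on the opposite strand), and in 279 genes (1.03%). A match describes the letters in this window, and binding was not measured. These matches are shown because they are the 3 other elements searched in the members, with capitals again marking the fixed letters.
Herpud1, ER stress element II: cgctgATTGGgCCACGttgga
Dnajb11, ER stress element II: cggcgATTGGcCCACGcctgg
Sec24d, TGACGTGG: gcgccTGACGTGGcacta
Herpud1, amino acid response core: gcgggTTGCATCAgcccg

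Derl3 and Syvn1, called in the averaged chromosome comparison and the averaged gonad comparison, both carry the element, so their promoters are given in full from RefSeq. Derl3 lies at chr10:75893148-75893447 and Syvn1 at chr19:6046326-6046625, both on the plus strand of GRCm38.p6, with the element in capitals.
Derl3: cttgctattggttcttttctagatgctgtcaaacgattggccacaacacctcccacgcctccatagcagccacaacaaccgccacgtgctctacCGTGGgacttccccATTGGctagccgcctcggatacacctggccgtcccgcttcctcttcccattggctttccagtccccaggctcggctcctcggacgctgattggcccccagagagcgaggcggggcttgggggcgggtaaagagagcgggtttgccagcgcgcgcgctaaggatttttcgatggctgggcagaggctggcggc
Syvn1: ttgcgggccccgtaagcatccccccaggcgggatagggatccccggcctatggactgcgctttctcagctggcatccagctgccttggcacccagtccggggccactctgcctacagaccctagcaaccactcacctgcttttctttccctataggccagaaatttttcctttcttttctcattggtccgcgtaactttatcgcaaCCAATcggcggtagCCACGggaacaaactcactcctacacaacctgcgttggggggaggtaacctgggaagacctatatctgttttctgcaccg

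The members spanned a wide range of levels, and chaperones stood at its top. Averaged over the 4 groups by RPKM, which allows for gene length, the chaperone Hsp90b1 was highest at 508, followed by Hspa5 (BiP), the chaperone that holds the stress sensors inactive, at 353. Among the 13 chaperones and folding helpers the median RPKM was 61.9 and the lowest was 8.37, in Fkbp11. The 4 disulfide isomerases had a median of 149 and ranged from 77.7 in P4hb to 236 in Pdia3. Members of ER-associated degradation were lower, with a median of 22.3 and a range from 10.8 in Edem3 to 101 in Herpud1. Translocation and signal peptidase genes had a median of 81.3, between 18.1 in Ssr1 and 237 in Sec11c. The N-glycosylation genes sat close together, from 55.4 in Rpn2 to 76.3 in Ddost. Sec24d, a cargo-binding part of the COPII vesicle coat, was at 4.66. The stress sensors and transcription factors ran from 0.879 in Trib3 to 116 in Atf4, with a median of 16.7.

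Summed over the 47 members, RPKM was 3497, 4294, 3887, 3302 and 3529 in XXF and 4029, 3974, 4288 and 3844 in XYF. It was 3954, 3798, 3967, 4060.5 and 4152 in XXM and 3372, 3746, 4509.7, 3778 and 3866 in XYM. Mice of all 4 groups overlapped, and the lowest and highest sums lay within 1.5-fold of each other. The heat map of member deviations by mouse shows that single members moved far more than this sum.

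**Figure D1:**
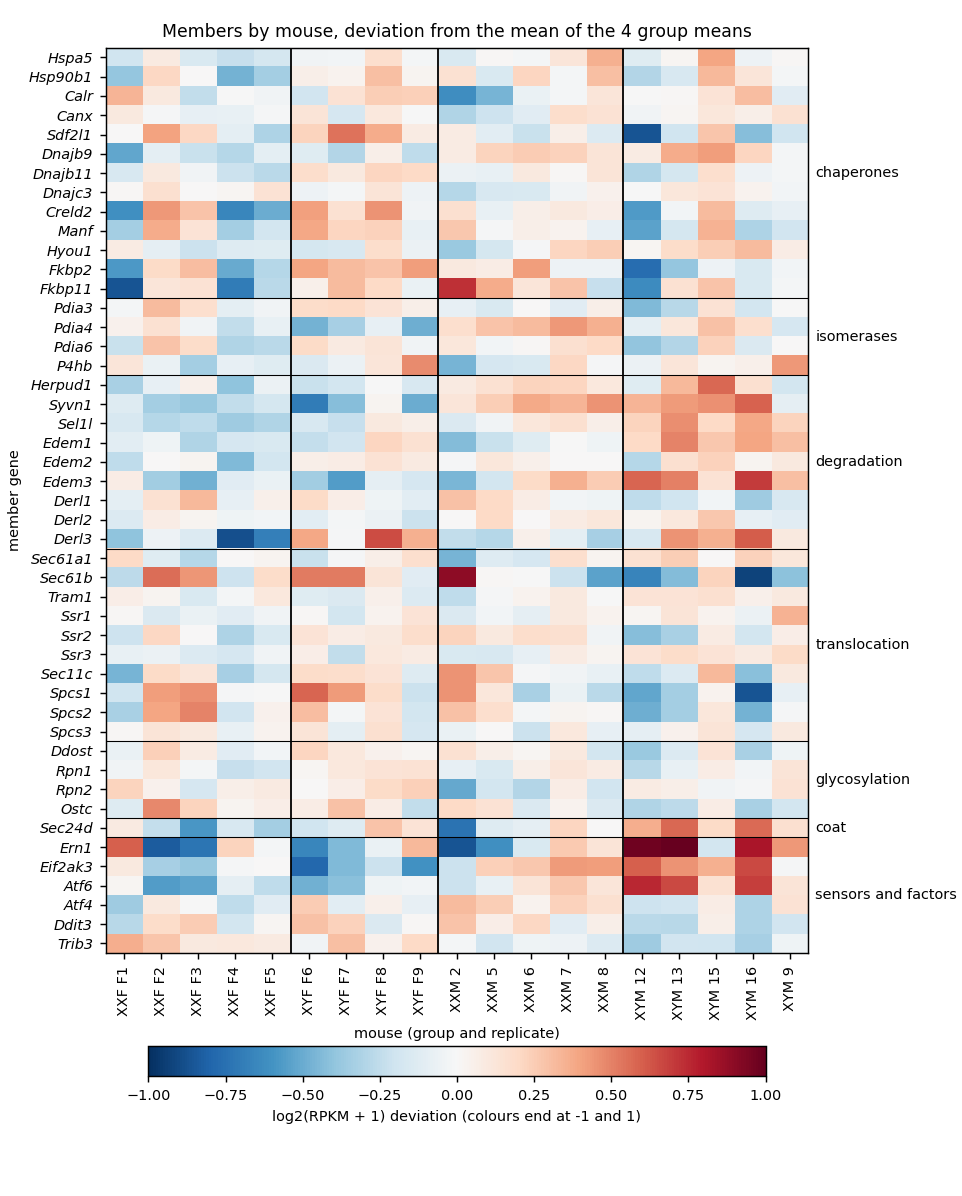
Each cell is a member's log2(RPKM + 1) in 1 mouse minus the mean of the 4 group means, with members ordered by role and the 19 mice by group. Ern1, Eif2ak3, Edem3 and Atf6 are highest in XYM mice 12, 13 and 16, where Spcs1 is lowest.

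Libraries stood apart in 2 ways that bear on the members. The first was a balance between short and long genes. For each mouse, the genes tested were divided into 4 groups of equal size by exon length, and the median deviation of the longest group (3882 bases or more) was subtracted from that of the shortest (1354 bases or fewer). This log2 balance was -0.20, 0.38, 0.38, -0.03 and 0.03 in XXF and 0.39, 0.41, 0.12 and -0.05 in XYF. It was 0.39, 0.17, -0.08, -0.12 and -0.24 in XXM and -0.52, -0.43, 0.03, -0.58 and -0.23 in XYM. XYM mice 12, 13 and 16 were the most tilted toward long genes, and XYF mice F6 and F7, XXF mice F2 and F3 and XXM mouse 2 were tilted toward short ones. The group means were 0.11, 0.22, 0.02 and -0.35 for XXF, XYF, XXM and XYM. Because the tilt differed most between XYM and XYF, each comparison was also fitted after the trend with gene length had been removed within each mouse, an alternative chosen after seeing the data. The second was neutrophil RNA. The summed RPKM of 9 neutrophil markers, led by S100a9, was 57030.2 in XYF F9 and 58995 in XYM 9, against 3239 to 16822 in the other 17 mice.

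Comparing XX with XY mice of the same gonad shows what goes with the sex chromosomes. In gonadal females, Derl3, a derlin that helps pull misfolded proteins out of the ER, was the 1 member called, and it was lower with XX. Derl3 had log2 values of 3.44, 3.79, 3.71, 2.96 and 3.16 in XXF and 4.23, 3.83, 4.50 and 4.20 in XYF. Every XXF mouse was below every XYF mouse, with F4 and F5 the lowest. Derl3 was 1.72-fold lower in XXF, a log2 difference of -0.78 (SE 0.18; limma, Benjamini-Hochberg adjusted p = 0.0473; two-sided exact permutation p = 0.0159). The 1 called member is 2.13% of the 47, and 1.38% of all genes were called (0.712% lower), so the share does not set the members apart. By limma, 8 of the 47 had an unadjusted p under 0.05, against 2655 of 14186 genes, and by voom 1 was called, against 243 of all genes. The next smallest p-values belonged to Dnajb11, a co-chaperone of Hspa5, with a log2 difference of -0.29 (limma, Benjamini-Hochberg adjusted p = 0.145), and to Fkbp2, an ER prolyl isomerase, at -0.52 (adjusted p = 0.16). Neither passed the test.

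By role, 12 of the 13 chaperones had a difference below 0 in XXF against XYF, with a median log2 difference of -0.26, and none of them was called by limma (3 had an unadjusted p under 0.05, and voom called 0). Over the 47 members the median was -0.09, with 34 below 0, while over all 14186 genes it was 0.06, with 5630 below 0. Derl3 missed the adjusted threshold without XXF F4 (adjusted p = 0.118), XXF F5 (0.137), XYF F6 (0.132) or XYF F9 (0.157), so that 0 members were called, and 0 were called when XXF and XYF were fitted alone. With 1 mouse left out, the number of all genes called ranged from 57 without XYF F9 to 850.0 without XYF F7. Without XXF F3, 2 members were called, Derl3 and Fkbp2 (a log2 difference of -0.64, limma, adjusted p = 0.0899), beside 116 genes higher and 86 lower in XXF. All 14186 genes split into 95 higher and 101 lower in XXF, and into 65 and 118 when the values were rescaled by median ratios.

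In gonadal males no member was called by limma between XXM and XYM, where 2.96% of all genes were. At an unadjusted p under 0.05 there were 18 of 47 members, against 3846 of 14186 genes, and voom called 0. The smallest p was that of Edem1, which marks misfolded glycoproteins for degradation. Edem1 had log2 values of 4.79, 4.997, 5.10, 5.21 and 5.18 in XXM and 5.42, 5.71, 5.49, 5.62 and 5.52 in XYM, and the groups did not overlap. Its difference was -0.50 (SE 0.10; limma, Benjamini-Hochberg adjusted p = 0.0324; two-sided exact permutation p = 0.00794, the smallest that 5 against 5 mice can give), which is under 1.5-fold. Sel1l, the partner of Syvn1 in the degradation complex, had log2 values of 4.38, 4.49, 4.63, 4.68 and 4.57 in XXM and 4.75, 4.99, 4.72, 4.91 and 4.74 in XYM, again without overlap. Its difference was -0.27 (limma, Benjamini-Hochberg adjusted p = 0.0905). Sec24d had log2 values of 1.73, 2.33, 2.38, 2.68 and 2.47 in XXM and 2.83, 3.04, 2.66, 3.03 and 2.62 in XYM. XXM mouse 7 lay above XYM mice 15 and 9, so these groups overlapped. The Sec24d difference was -0.52 (limma, Benjamini-Hochberg adjusted p = 0.0905).

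Over the 47 members the median log2 difference between XXM and XYM was 0.01, as over all genes. The number of genes called depended strongly on single mice: from 420.0 over all genes it went to 51 (0.36%) without XXM 2, 58 (0.411%) without XYM 13 and 1212 (8.57%) without XYM 15. Leaving out 1 mouse brought Ern1 over both thresholds in 6 of 19 cases: 1 member was called without XXF F1 (adjusted p = 0.0926), XYF F9 (0.0939), XXM 8 (0.0957) or XYM 9 (0.0986). The shares of all genes called in these fits were 3.52%, 3.7%, 4.4% and 5.5%. There were 2 without XXM 7 (4.54% of all genes), Ern1 (0.0894) and Sec24d (0.0686), and 2 without XYM 15, Ern1 (0.0385) and Sec61b (0.0806). Differences between XXM and XYM also followed gene length, with r = -0.66 over the members and r = -0.19 over all genes. With that trend removed Edem1 was at -0.30 (limma, adjusted p = 0.0949), Sel1l at -0.06 (adjusted p = 0.675) and Sec24d at -0.41 (adjusted p = 0.121). The 1 member then called was Derl3, at -0.63 (limma, Benjamini-Hochberg adjusted p = 0.075), while over all genes 127 were higher and 169 lower in XXM. With a pseudocount of 0.1 the 1 member called was Sec24d, beside 215 genes higher and 328 lower.

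Averaged over both gonadal sexes, Derl3 was again the 1 member called, and lower with XX. In males its log2 values were 3.60, 3.56, 3.89, 3.75 and 3.51 in XXM and 3.68, 4.29, 4.20, 4.45 and 3.94 in XYM. XYM mouse 12 fell among the XXM mice, and the other XYM mice lay above all of them. The averaged difference was 1.53-fold lower with XX, a log2 difference of -0.62 (SE 0.12; limma, Benjamini-Hochberg adjusted p = 0.0117; two-sided exact permutation p = 0.000441). The smallest p that the permutations of averaged groups can give is 3.15e-05. This 1 member of 47 (2.13%) stands beside 1.72% of all genes (1.21% lower). The calls over all genes depended on single mice, at 73 higher and 171 lower with every mouse. They were 134 and 384 without XYF F7, and 46 and 102 without XYF F9. At an unadjusted p under 0.05 limma gave 9 members, against 3234 of 14186 genes, and voom called 1, against 395 of all genes. Edem1 and Sel1l followed, with log2 differences of -0.32 and -0.24 (limma, Benjamini-Hochberg adjusted p = 0.0293 and 0.0462), both under 1.5-fold. The members' median was -0.06 and that of all genes 0.03, and the differences of all 13 chaperones were below 0 (12 with the length trend removed), with 0 called by limma or voom and 0 at an unadjusted p under 0.05. In XXM against XYM alone, 8 of the 13 chaperones were above 0, with a median of 0.10 (9 and 0.02 with the length trend removed). Derl3 fell short of 1.5-fold without XXF F4 (-0.56), XXF F5 (-0.58), XYF F8 (-0.56) or XYM 16 (-0.57), and 0 members were then called.

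Comparing gonadal males with females of the same chromosomes shows what goes with testes or ovaries and the Sry transgene. Most calls came in XY mice, where 9 of the 47 members passed between XYM and XYF: 5 higher in XYM, from degradation and stress sensing, and 4 lower, from folding and translocation. These 9 are 19.1% of the members, and 15.8% of all genes were called (7.63% higher and 8.13% lower), so the members' share was near that of all genes. Eif2ak3, the sensor that slows translation in ER stress, had log2 values of 3.54, 3.88, 4.11 and 3.72 in XYF and 4.92, 4.77, 4.68, 4.99 and 4.31 in XYM. All XYM mice were above all XYF mice, with XYM 9 the closest to them. Eif2ak3 was 1.89-fold higher in XYM, a log2 difference of 0.92 (SE 0.16; limma, Benjamini-Hochberg adjusted p = 0.00212; two-sided exact permutation p = 0.0159). Syvn1 (HRD1), the ubiquitin ligase of ER-associated degradation, had log2 values of 4.64, 4.92, 5.37 and 4.85 in XYF and 5.68, 5.77, 5.80, 5.94 and 5.25 in XYM. XYM 9 lay below XYF F8, and the other XYM mice lay above every XYF mouse. Syvn1 was 1.67-fold higher in XYM, a log2 difference of 0.74 (SE 0.14; limma, Benjamini-Hochberg adjusted p = 0.00299; two-sided exact permutation p = 0.0238). Edem3, which trims sugars on misfolded glycoproteins, had log2 values of 3.15, 2.94, 3.41 and 3.33 in XYF and 4.08, 3.9998, 3.65, 4.20 and 3.80 in XYM, without overlap. Edem3 was 1.67-fold higher in XYM, a log2 difference of 0.74 (SE 0.17; limma, Benjamini-Hochberg adjusted p = 0.00628; two-sided exact permutation p = 0.00794), the smallest exact p that 5 against 4 mice can give.

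The other 2 sensors were higher in XYM as well. Atf6, the sensor released by cleavage in the Golgi, had log2 values of 3.28, 3.35, 3.73 and 3.74 in XYF and 4.52, 4.42, 3.92, 4.45 and 3.89 in XYM. The groups did not overlap, with XYM 15 and 9 nearest to XYF. Atf6 was 1.64-fold higher in XYM, a log2 difference of 0.72 (SE 0.16; limma, Benjamini-Hochberg adjusted p = 0.00661; two-sided exact permutation p = 0.0238). Ern1, the sensor whose nuclease splices Xbp1 RNA, had log2 values of 0.99, 1.19, 1.57 and 1.96 in XYF and 2.61, 2.63, 1.45, 2.46 and 2.07 in XYM. XYM 15 fell within the range of XYF, and the other 4 XYM mice lay above it. Ern1 was 1.76-fold higher in XYM, a log2 difference of 0.82 (SE 0.32; limma, Benjamini-Hochberg adjusted p = 0.0626; two-sided exact permutation p = 0.0476). The Ern1 call was lost without XYF F6 (adjusted p = 0.189), XYF F7 (0.134), XYM 12 (0.138), XYM 13 (0.131) or XYM 16 (0.124).

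The 4 members lower in XYM have short transcripts. Fkbp2 had log2 values of 6.43, 6.35, 6.32 and 6.45 in XYF and 5.28, 5.66, 5.99, 5.89 and 6.01 in XYM. The XYF mice lay close together and above all XYM mice, of which 12 was the lowest. Fkbp2 was 1.54-fold lower in XYM, a log2 difference of -0.63 (SE 0.18; limma, Benjamini-Hochberg adjusted p = 0.0178; two-sided exact permutation p = 0.00794), again the smallest exact p for these group sizes. Sec61b, a small subunit of the translocation channel, had log2 values of 6.75, 6.75, 6.36 and 6.12 in XYF and 5.56, 5.79, 6.45, 5.30 and 5.82 in XYM. XYM 15 lay within the XYF range and XYM 16 was lowest. Sec61b was 1.63-fold lower in XYM, a log2 difference of -0.71 (SE 0.26; limma, Benjamini-Hochberg adjusted p = 0.0512; two-sided exact permutation p = 0.0476). Spcs1, a subunit of signal peptidase, had log2 values of 7.12, 6.96, 6.72 and 6.32 in XYF and 6.01, 6.20, 6.58, 5.67 and 6.45 in XYM. XYM 15 and 9 lay above XYF F9, so the groups overlapped. Spcs1 was 1.51-fold lower in XYM, a log2 difference of -0.60 (SE 0.21; limma, Benjamini-Hochberg adjusted p = 0.0397; two-sided exact permutation p = 0.0556). Sdf2l1, a partner of Hspa5 and its co-chaperones, had log2 values of 5.77, 6.09, 5.92 and 5.63 in XYF and 4.68, 5.35, 5.83, 5.12 and 5.35 in XYM. XYM 15 again lay within the XYF range, and XYM 12 was lowest. Sdf2l1 was 1.5-fold lower in XYM, a log2 difference of -0.59 (SE 0.18; limma, Benjamini-Hochberg adjusted p = 0.0227; two-sided exact permutation p = 0.0476). Several of these calls depended on single mice. Fkbp2 fell short of 1.5-fold without XYM 12 (-0.50). Sec61b missed the adjusted threshold without XYF F6 (adjusted p = 0.147), XYF F7 (0.123), XYM 12 (0.11) or XYM 16 (0.129). Spcs1 fell short of 1.5-fold without XYF F6 (-0.48), XYF F7 (-0.54), XYM 12 (-0.55) or XYM 16 (-0.47). The same held for Sdf2l1 without XYF F7 (-0.51), XYF F8 (-0.57), XYM 12 (-0.44) or XYM 16 (-0.55).

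**Figure D2:**
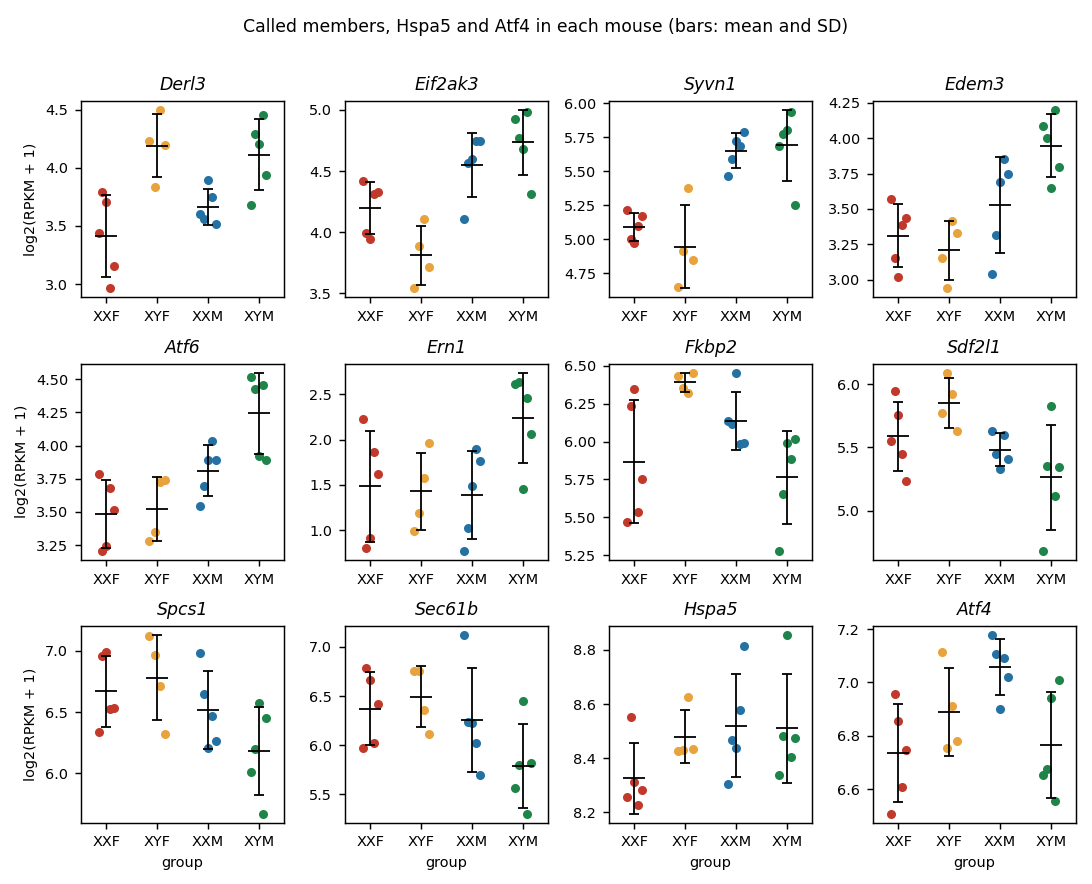
Each point is the log2(RPKM + 1) of 1 mouse, with the group mean and SD as bars, for the 10 members called in any comparison and for Hspa5 and Atf4, whose panels each have their own axis. Eif2ak3, Edem3, Atf6 and Fkbp2 do not overlap between XYM and XYF, and Derl3 does not overlap between XXF and XYF.

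By role, the called members between XYM and XYF were 3 of 6 stress sensors and transcription factors, 2 of 9 degradation genes, 2 of 13 chaperones and 2 of 10 translocation genes. None of the 4 isomerases, the 4 N-glycosylation genes or the coat gene was called by limma or by voom, while 2 of the isomerases and 1 N-glycosylation gene had an unadjusted p under 0.05. In all, 23 of 47 members had an unadjusted p under 0.05, against 6019 of 14186 genes. Voom called 10 members, against 2922 of all 14186 genes. The members' median difference was -0.05 (0.01 with the length trend removed, as given below) and that of all genes 0.02. The count without 1 mouse ranged from 4 to 9: it was 4 without XYM 12, 5 without XYF F7, 5 without XYM 16, 6 without XYF F6, 8 without XYF F8 and 8 without XYM 13. Over all genes the share called in these fits was 11.5%, 15.5%, 12%, 9.87%, 19.5% and 14.3%, in the same order. It stayed at 9 without XYF F9 and without XYM 9, the mice with high neutrophil markers. Over all genes, 1092 were higher and 1454 lower without XYF F9, and 1497 and 1459 without XYM 9. With every mouse they were 1083 and 1154. Each of these fits kept the other high mouse, so the part of neutrophils was not tested. Fewer cells of a type and less RNA per cell cannot be told apart in these bulk samples.

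The differences between XYM and XYF followed gene length. Over all genes tested, the median log2 difference ran across the 4 length groups from -0.26 in the shortest through -0.10 and 0.11 to 0.29 in the longest. The 4 members lower in XYM were all in the shortest group, while 4 of the 5 higher ones were in the longest and Syvn1 was in the group before it. Across genes, the correlation of the difference with log2 length was r = 0.32 for all 14186 genes and r = 0.69 for the 47 members, as a description, since genes are not independent. With the trend removed within each mouse, 2 of the 47 members were called, beside 11.1% of all genes. These were Eif2ak3 at 0.73 (limma, Benjamini-Hochberg adjusted p = 0.00363) and Syvn1 at 0.62 (adjusted p = 0.0062). Ern1 kept a difference over 1.5-fold but not its adjusted p, at 0.66 (adjusted p = 0.105). The other 6 fell short of 1.5-fold, at 0.43 for Edem3, 0.38 for Atf6, -0.36 for Sec61b, -0.32 for Sdf2l1, -0.31 for Spcs1 and -0.28 for Fkbp2. Whether the length balance comes from the libraries or from the cells was not tested.

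**Figure D3:**
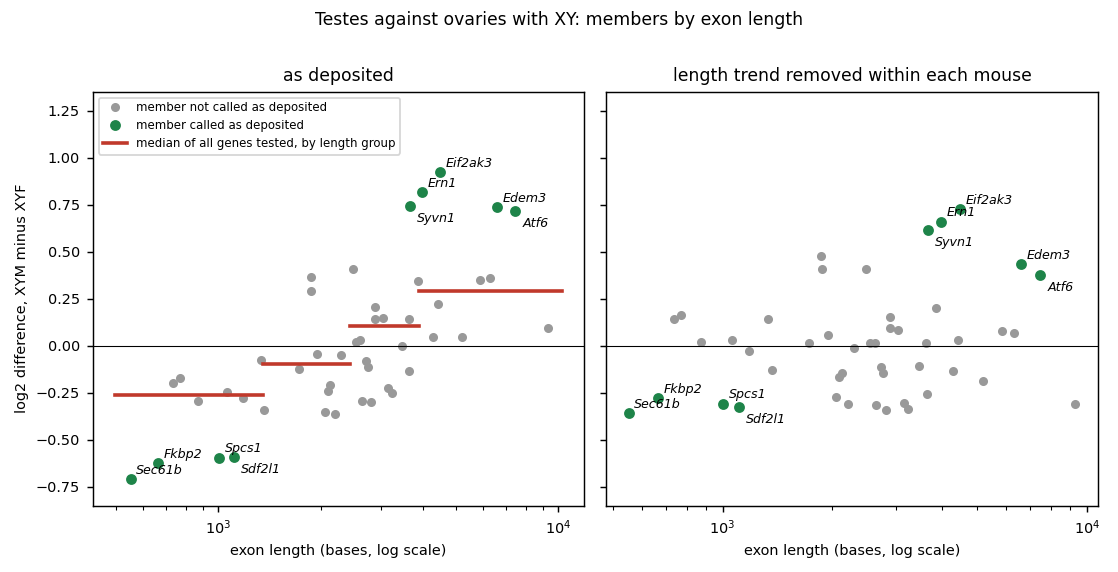
Each point is a member, with exon length in bases on a log axis and the log2 difference of XYM minus XYF, as deposited (left) and with the length trend removed within each mouse (right); green points are the 9 members called as deposited, and red lines are medians of all genes in 4 groups by length. The medians run from -0.26 to 0.29 on the left, and after removal Eif2ak3 and Syvn1 are the 2 members still called.

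In XX mice no member was called by limma between XXM and XXF, where 4.22% of all genes were. At an unadjusted p under 0.05 there were 12 of 47 members, against 2807 of 14186 genes, and voom called 0. The smallest p-values belonged to members of degradation and folding, each higher in every XXM mouse than in any XXF mouse. Syvn1 had log2 values of 5.21, 5.001, 4.97, 5.10 and 5.17 in XXF and 5.47, 5.59, 5.72, 5.68 and 5.79 in XXM. The groups lay apart, and the difference of 0.56 was just under 1.5-fold (SE 0.13; limma, Benjamini-Hochberg adjusted p = 0.0135; two-sided exact permutation p = 0.00794, the smallest possible with 5 against 5 mice). Dnajb9, a co-chaperone of Hspa5 that is among the strongest targets of Xbp1, had log2 values of 4.72, 5.15, 5.02, 4.96 and 5.15 in XXF and 5.32, 5.47, 5.50, 5.48 and 5.37 in XXM. Its difference was 0.43 (limma, Benjamini-Hochberg adjusted p = 0.0151). Sel1l had log2 values of 4.36, 4.23, 4.26, 4.17 and 4.22 in XXF, all below the lowest XXM mouse. Its difference was 0.30 (limma, Benjamini-Hochberg adjusted p = 0.0404). The median over members was 0.10, and over all genes -0.01. Syvn1 was called without XXF F1 (0.59, where 3.68% of all genes were called) or without XXM 2 (0.61, 4.11%), giving 1 member each time. Fkbp11, a weakly expressed prolyl isomerase, was the 1 member called without XXF F2 (0.68, 3.91%), XXF F3 (0.69, 4.33%) or XXM 8 (0.69, 4.03%), and again with the length trend removed, at 0.66 (limma, Benjamini-Hochberg adjusted p = 0.00992), beside 4.42% of all genes.

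Averaged over XX and XY mice, 2 members were called between gonadal males and females, Syvn1 and Eif2ak3, both higher in males. They are 4.26% of the 47 members, below the 7.32% of all genes called (1.96% higher). Syvn1 was 1.57-fold higher in males, a log2 difference of 0.65 (SE 0.10; limma, Benjamini-Hochberg adjusted p = 0.000166; two-sided exact permutation p = 9.45e-05). Every male mouse but XYM 9 lay above every female mouse. Eif2ak3 had log2 values of 4.42, 3.995, 3.95, 4.31 and 4.33 in XXF and 4.11, 4.56, 4.60, 4.75 and 4.74 in XXM, where only XXM mouse 2 and XXF mice F1, F4 and F5 crossed. Averaged, Eif2ak3 was 1.55-fold higher in males, a log2 difference of 0.64 (SE 0.11; limma, Benjamini-Hochberg adjusted p = 0.000669; two-sided exact permutation p = 0.000535). Sel1l was next, at 0.33 (limma, Benjamini-Hochberg adjusted p = 0.00126), under 1.5-fold. At an unadjusted p under 0.05 limma gave 15 of 47 members, against 5914 of 14186 genes, and voom called 3, against 1714 of all genes. The members' median was 0.04 and that of all genes 0.02. Both calls were kept whichever of the 19 mice was left out. With the length trend removed Sel1l was at 0.18 (limma, Benjamini-Hochberg adjusted p = 0.0234). Syvn1 was then still called, and Eif2ak3 was at 0.54 (limma, Benjamini-Hochberg adjusted p = 0.000456), under 1.5-fold, leaving 1 member called. Over all genes 319 were then called higher and 630 lower in males.

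Whether the chromosome difference itself depended on the gonad was tested as an interaction, the XX minus XY difference in males less that in females. No member was called by limma, against 0.0846% of all genes (12 genes). At an unadjusted p under 0.05 there were 12 of 47 members, against 2979 of 14186 genes, and voom called 0. Fkbp2 had the smallest p among the members. Its log2 values in XXF were 5.47, 6.23, 6.35, 5.53 and 5.75, and in XXM 6.13, 6.11, 6.46, 5.98 and 5.99. Set beside XYF and XYM, XX mice were lower than XY mice among females and higher among males, with overlap in both. The interaction was 0.89 (SE 0.25; limma, Benjamini-Hochberg adjusted p = 0.131), and it did not pass. With the length trend removed it was 0.65 (adjusted p = 0.213). Ssr2, a subunit of the translocon-associated complex, was at 0.49 (limma, Benjamini-Hochberg adjusted p = 0.137), and Dnajb11 at 0.39 (adjusted p = 0.146). For Derl3 the interaction was 0.33 (adjusted p = 0.44), so its chromosome difference was not shown to differ between the gonads. Of the chaperones, 9 of 13 had an interaction above 0, with a median of 0.39 (10 and 0.25 with the length trend removed). The interaction followed gene length, with r = -0.75 over the members and r = -0.25 over all genes. The number of genes called in the interaction was unstable, going from 12 to between 0 and 1693 when 1 mouse was left out, so the gains among members came with gains over all genes. Leaving out XXF F3 (8.48% of all genes) gave 3 called members, Eif2ak3 (-0.63), Fkbp11 (0.89) and Fkbp2 (1.01). Leaving out XYM 15 (5.7%) gave 2, Fkbp2 (0.95) and Manf (0.62). Without XYM 9 (12%, 1693 genes) there were also 2, Eif2ak3 (-0.68) and Fkbp2 (0.96), and without XYF F8 (5.35%) there was 1, Fkbp2 (0.92). The 7 comparisons share groups, so their results are not independent of each other.

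The sensors and their first partners showed different patterns from mouse to mouse. Hspa5 had log2 values of 8.26, 8.55, 8.31, 8.22 and 8.28 in XXF, 8.43, 8.43, 8.63 and 8.44 in XYF, 8.30, 8.47, 8.44, 8.58 and 8.82 in XXM and 8.34, 8.48, 8.85, 8.41 and 8.47 in XYM. The groups overlapped in every comparison between 2 groups, and the largest of these 4 differences was 0.20 for XXM against XXF (limma, Benjamini-Hochberg adjusted p = 0.383). Among the members Ern1 had the largest SD in XXF, XYF and XYM, while in XXM that of Sec61b was larger (0.530 against 0.483). Ern1 had log2 values of 2.23, 0.81, 0.91, 1.86 and 1.62 in XXF and 0.77, 1.02, 1.49, 1.90 and 1.77 in XXM. In XXF, mice F2 and F3 were low, and so were XXM mice 2 and 5. Between XXM and XYM the Ern1 difference was -0.85 (limma, Benjamini-Hochberg adjusted p = 0.109), which did not pass. Atf6 had log2 values of 3.78, 3.21, 3.24, 3.68 and 3.51 in XXF and 3.55, 3.69, 3.89, 4.03 and 3.89 in XXM, which overlapped, and its difference there was 0.33 (limma, Benjamini-Hochberg adjusted p = 0.251).

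The factors downstream of Eif2ak3 were not called in any of the 7 comparisons by limma. Atf4 had log2 values of 6.51, 6.96, 6.86, 6.61 and 6.75 in XXF, 7.11, 6.75, 6.91 and 6.78 in XYF, 7.18, 7.11, 6.90, 7.09 and 7.02 in XXM and 6.65, 6.67, 6.94, 6.55 and 7.01 in XYM. The XXM mice were above the XXF mice except that XXM 6 lay below XXF F2, and the other groups overlapped with them. The difference of XXM against XXF was 0.32 (limma, Benjamini-Hochberg adjusted p = 0.0937; two-sided exact permutation p = 0.0159), under 1.5-fold. Ddit3 (CHOP), a factor tied to cell death in lasting ER stress, had log2 values of 4.63, 5.09, 5.16, 4.72 and 4.92 in XXF, 5.19, 5.13, 4.76 and 4.91 in XYF, 5.19, 4.97, 5.11, 4.79 and 4.96 in XXM and 4.63, 4.63, 4.96, 4.59 and 4.71 in XYM. The groups overlapped throughout. Its difference between XYM and XYF was -0.29 (limma, Benjamini-Hochberg adjusted p = 0.0819), also under 1.5-fold, and with the length trend removed it turned to 0.02 (adjusted p = 0.877). At 0.879 RPKM, Trib3 was the weakest member, and its group means lay between 0.605 in XYM and 1.13 in XXF. Voom, and limma with a pseudocount of 0.1, called Trib3 as lower in XYM against XYF and in males against females.

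The members with the ER stress element are set here beside the 28 others that had a promoter entry. Between XYM and XYF, 1 of the 9 with it was called (Syvn1) and 7 of the 28 without it, beside 15.8% of all genes. Their medians were -0.04 and -0.06. Between XXF and XYF, 1 of 9 was called (Derl3) and 0 of 28, beside 1.38% of all genes, with medians of -0.15 and -0.10. Between XXM and XXF none of either group was called by limma, with medians of 0.20 and 0.09. In XXM against XYM the medians were -0.04 and 0.04, in XX against XY -0.08 and -0.06, in males against females 0.00 and 0.07, and in the interaction 0.16 and 0.07. In XX against XY 1 of 9 (Derl3) and 0 of 28 were called, beside 1.72% of all genes. In males against females 1 of 9 (Syvn1) and 1 of 28 (Eif2ak3) were, beside 7.32%. Limma called none of either group in XXM against XYM or in the interaction. These are descriptions of small groups without a test.

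Another 84 genes of the ER pathway were listed beside the members, and 83 of them were tested. Between XXF and XYF 0 were called by limma, where 14 had an unadjusted p under 0.05 and voom called 0. Between XXM and XYM 2 were lower in XXM, Creb3l2, a membrane-bound transcription factor, at -0.79 (limma, Benjamini-Hochberg adjusted p = 0.0585) and the ER oxidase Ero1l at -0.72 (adjusted p = 0.0888). Averaged over both gonads 0 were called, where 17 had an unadjusted p under 0.05 and voom called 2. Between XXM and XXF 1 was higher in XXM, the oxidase Ero1lb, at 0.70 (limma, Benjamini-Hochberg adjusted p = 0.000542). Most calls again came from XYM against XYF, given next.

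In XYM against XYF 9 of the 83 were called (10.8%, beside 15.8% of all genes), 6 higher and 3 lower in XYM. Within the 19 genes of stress signalling, 3 were higher and 3 lower. The 5 largest were the amino acid enzyme Asns, a target of Atf4, at -1.44 (limma, Benjamini-Hochberg adjusted p = 0.0216), the phosphatase subunit Ppp1r15a at -1.23 (adjusted p = 0.0102), Crebrf at 0.80 (adjusted p = 0.00438), Nupr1 at -0.74 (adjusted p = 0.047) and Creb3l2 at 0.72 (adjusted p = 0.0154). Outside stress signalling the called genes were Ero1lb at 0.81 of 15 folding and oxidation genes, the coat gene Sec24a at 0.74 of 18 in ER-Golgi transport, and the glycosylation subunit Stt3b at 0.60 of 19 in translocation and glycosylation. Of 12 further degradation genes, limma and voom called 0, and 2 had an unadjusted p under 0.05. In males against females 3 of 83 were called (3.61%, beside 7.32% of all genes), Ero1lb at 0.76, Asns at -1.01 and Ppp1r15a at -0.65. The interaction gave 0, where 18 had an unadjusted p under 0.05 and voom called 0.

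Xbp1, the factor made active by Ern1 and listed among both stress signalling and plasma cell markers, was not called by limma in any of the 7 comparisons. Its log2 values were 6.51, 6.90, 6.71, 6.35 and 6.55 in XXF and 6.98, 6.97, 7.17 and 7.15 in XYF. Every XXF mouse lay below every XYF mouse. The difference was -0.47 (limma, Benjamini-Hochberg adjusted p = 0.0691; two-sided exact permutation p = 0.0159), under 1.5-fold. In males it had log2 values of 6.87, 6.92, 6.91, 7.04 and 7.01 in XXM and 6.78, 7.23, 7.25, 6.98 and 7.33 in XYM, with overlap. The difference there was -0.17 (limma, Benjamini-Hochberg adjusted p = 0.329), and the averaged one -0.32 (adjusted p = 0.0457). Between XXM and XXF it was 0.34 (adjusted p = 0.0771), and between XYM and XYF 0.04 (adjusted p = 0.801). For males against females it was 0.19 (limma, Benjamini-Hochberg adjusted p = 0.08), and the interaction was 0.30 (adjusted p = 0.283). The values say nothing of the spliced form, which a count per gene does not separate.

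Markers of the cells that a spleen suspension can hold were measured beside the members. All 9 lists had RNA, and no listed gene in the table was at 0 in any mouse. Plasma cell markers (11 genes, led by Igj at a mean RPKM of 957, which made up 61.0% of the list) summed to 1032, 1733, 1707, 912 and 1188 in XXF and 1944, 1703, 2108 and 1486 in XYF. The sums were 1619, 1619.9, 1262, 1617 and 1487 in XXM and 1365, 1818, 1983, 1429.6 and 1803 in XYM. Between XXF and XYF 1 of 11 was called, Tnfrsf17 at -0.92 (limma, Benjamini-Hochberg adjusted p = 0.06), lower in XXF. Of the 11 differences there, 6 were above 0 and 5 below, with a median of 0.002. By limma 6 of the 11 had an unadjusted p under 0.05, and 2 had an adjusted p under 0.1, both lower in XXF. In XYM against XYF 4 of 11 were higher in XYM, led by Tnfrsf13b at 1.09 and Irf4 at 1.03, and 1 was lower, Tnfrsf17 at -0.82. In males against females 2 were higher, Irf4 and Tnfrsf13b. In the other 4 comparisons limma and voom called 0 of 11, while unadjusted p under 0.05 was reached by 3 in XXM against XYM, 5 in XX against XY, 2 in XXM against XXF and 3 in the interaction.

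NK cell markers moved with the chromosome comparison. The 7 genes were led by Gzma (mean RPKM 201), which made up 51.9% of the list. They summed to 506, 583, 556, 647 and 625 in XXF and 254, 365, 263 and 147 in XYF, without overlap. They summed to 483, 402, 443, 441 and 397 in XXM and 265, 260.5, 389, 217 and 119 in XYM, also without overlap. All XXM sums lay below all XXF sums as well, while XYM and XYF overlapped. In XXF against XYF 5 of 7 were higher with XX, led by Gzma at 1.73 (limma, Benjamini-Hochberg adjusted p = 0.0376), and averaged over both gonads also 5. In XXM against XYM 2 were higher, Gzma and Klrb1c. In XXM against XXF 1 was lower, Nkg7 at -0.67, and in XYM against XYF 1 was higher, Klrk1 at 0.68. The part of NK, plasma, B, neutrophil or other cells in the Derl3 difference was not tested.

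B and T cell markers moved with the gonad comparison. The 9 B cell markers, led by Cd79b (mean RPKM 865), summed to 3169.6, 2981, 2592, 2983 and 2898 in XXF and 1649.5, 2676, 2776 and 1407 in XYF. They summed to 4141, 4563, 4086, 4159 and 3804 in XXM and 3899, 3251, 4026, 3718 and 2399 in XYM. All XXM mice were above all XXF mice, and XYM mice other than 9 were above all XYF mice. Between XYM and XYF 8 of 9 were higher in XYM, led by Cd22 at 1.18 (limma, Benjamini-Hochberg adjusted p = 0.00999), and in males against females 7 of 9. In XXM against XXF and in XXM against XYM 1 was higher, Pax5, in XXF against XYF 2, Cr2 and Blk, and in XX against XY 1, Cr2. The 9 T cell markers, led by Trac (mean RPKM 215), summed to 1208, 1695, 1517, 1230.5 and 1498 in XXF and 1202, 1536, 1167 and 605 in XYF. They summed to 547, 582, 519, 398 and 394 in XXM and 595, 553, 768, 672 and 365 in XYM. Males were lower, with XYF F9 alone among females inside the male range. Between XXM and XXF 9 of 9 were lower, led by Cd8b1 at -2.23 (limma, Benjamini-Hochberg adjusted p = 1.94e-05). Between XYM and XYF 8 of 9 were lower, in males against females 8 of 9, and in XXM against XYM 3 of 9.

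Erythroid and proliferation RNA differed between XYM and XYF too. Although red cells had been lysed, 7 of the 8 listed erythroid markers were in the table, led by Hbb-bs (mean RPKM 10148), and summed to 12781, 19665, 28758, 22813 and 16296 in XXF and 47966, 20122, 15753 and 36375 in XYF. They summed to 12344, 9715, 7610.2, 7311 and 14489 in XXM and 2296, 6835, 5033, 1585 and 14629 in XYM. All XYF mice lay above all XYM mice. In XYM 7 of 7 were lower than in XYF, led by Hba-a1 at -3.22 (limma, Benjamini-Hochberg adjusted p = 0.00177), as were 7 of 7 in males against females, while 2 were higher in XXM against XYM. The 8 proliferation markers, led by Ube2c (mean RPKM 78.7), summed to 259, 218, 285, 211 and 182 in XXF and 675, 186, 358 and 739.7 in XYF. They summed to 145, 116, 215, 161 and 255 in XXM and 121, 209.7, 124, 146 and 556 in XYM. XYF F6 and F9 and XYM 9 were high. Of the 8, 5 were lower in XYM than in XYF and 6 lower in males than in females.

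The 9 neutrophil markers summed to 4706, 3915, 5396, 5152 and 4498 in XXF and 13253, 16822, 8107 and 57030.2 in XYF. They summed to 6731, 5765, 7607, 5074 and 4491 in XXM and 3239, 9516, 4143, 4023 and 58995 in XYM. Every XYF sum lay above every XXF sum. Between XXF and XYF the median difference was -2.08, with 0 of 9 called by limma, 7 at an unadjusted p under 0.05 and 0 by voom. Between XYM and XYF, where XYF F9 and XYM 9 were both very high, limma and voom called 0 of 9, and 1 had an unadjusted p under 0.05. Averaged over both gonads 2 were lower with XX, Mpo at -1.70 and Elane at -1.47. Myeloid markers (9 genes) were led by Lyz2 at a mean RPKM of 1137, which made up 79.8% of the list. They summed to 3689 in XYF F9 and 3513 in XYM 9, and to between 776 and 1919 in the other 17 mice. Cytosolic heat shock genes (8, led by Hspa8 at a mean RPKM of 186), which answer misfolding outside the ER, summed to 437, 590.3, 478, 431 and 549 in XXF and 543, 531, 528 and 437 in XYF. They summed to 863, 494, 578, 654 and 882 in XXM and 499.7, 427, 698, 486 and 509.8 in XYM, where XXM 2 and 8 were highest. Between XXM and XXF 2 were higher, Hsph1 at 1.05 and Hsp90aa1 at 0.73, between XXM and XYM 1, Hsp90aa1, and in males against females 1, Hsph1. Between XYM and XYF Hsph1 was higher and Hspe1 lower, at 0.78 and -0.64. The part of these cells in the differences of Eif2ak3, Syvn1 and the other called members was not tested.

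**Figure D4:**
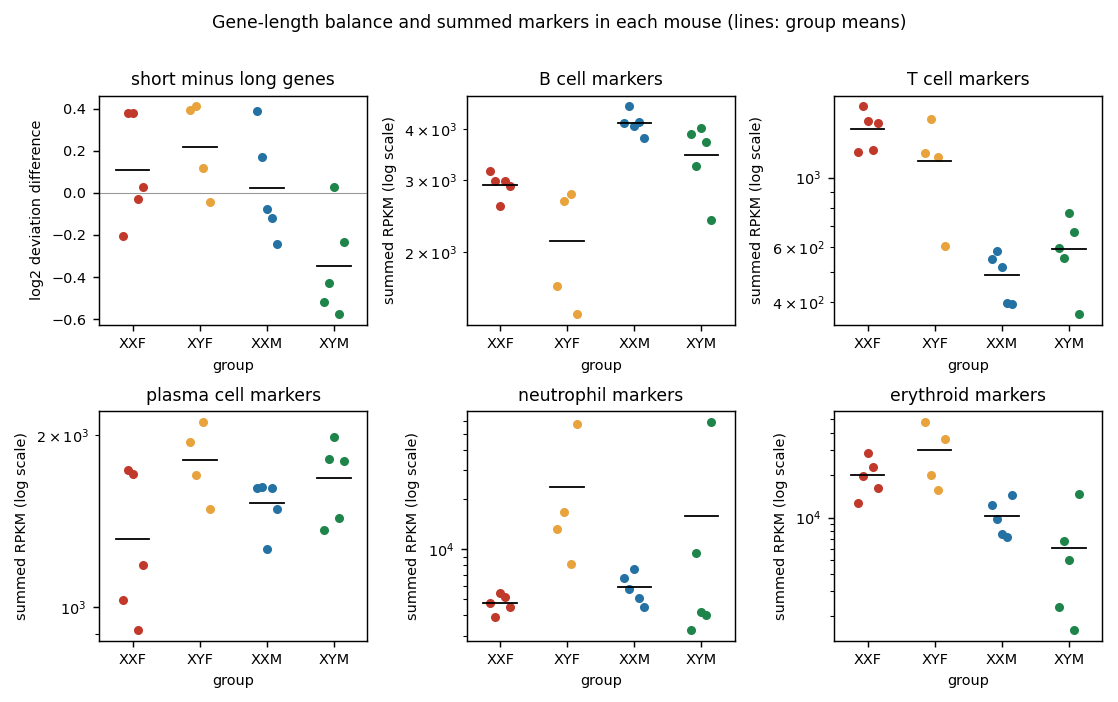
Each point is 1 mouse and each line a group mean: the short minus long balance of all genes tested (log2, upper left) and the summed RPKM of 5 marker lists on log axes. XYM mice 12, 13 and 16 have the lowest balance, T cell sums are lower in both male groups, and XYF F9 and XYM 9 stand out in neutrophil markers at 57030.2 and 58995.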

How the data were processed

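RNA-seq values of 19 mice were deposited by the authors as log2 of RPKM plus 1, with a constant of 0.0001 added, after alignment to mm10 with Subread, counting with featureCounts and scaling by library size. Their versions and strand settings were not given in the sources used here, while the library kit named in the labels differs from that in the methods. The authors tested with edgeR, which needs counts, so limma 3.58.1 (R 4.3.3, with a mean trend) was fitted to the deposited values, with a mean per group and a spread common to the 4 groups. Testing was limited to the 14186 genes that reached 0.5 RPKM in 4 or more mice, and p-values were adjusted by Benjamini-Hochberg over them. Calls needed an adjusted p under 0.1 and a difference over 1.5-fold, the study's thresholds. Whole reads were recovered from the values for 21317 of 21317 genes with a read (within 0.0012 of a whole number, at a tolerance of 0.05), and voom was run on them. Reads and lengths rest on 1321 genes with 1 transcript. Single members were also tested by two-sided exact permutation of mice, in the groups compared or within each stratum of an averaged comparison.

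The 47 members, 84 other ER pathway genes and 9 marker lists (plasma, B, T, myeloid, neutrophil, NK and erythroid cells, proliferation, cytosolic heat shock) were chosen with earlier results of these data known. Named genes are the members called, the 3 members with the smallest p where fewer than 3 were called, 6 sensors and factors (Hspa5, Ern1, Eif2ak3, Atf6, Atf4, Ddit3), up to 5 called genes a list (myeloid markers are given by their sum alone), and Xbp1. Fkbp11, Trib3, the genes named as gained when a mouse was left out, and Derl3 in the interaction were chosen after their values were seen. Alternatives were other filters, pseudocounts of 0.1 and 0.5, median ratio rescaling, limma without a trend, voom, no fold threshold, the compared groups alone and each mouse left out. Removal of a lowess trend (span 0.3) on log2 exon length within each mouse was added after seeing the data. The fit was tested on simulated data, the outcome of which is not given here. The scripts ran on Python 3.11.15 with scipy 1.17.1, matplotlib 3.10.9, pandas 2.3.3 and numpy 2.4.6. Promoters are those of RefSeq on GRCm38.p6. Protein sequences were not analysed here.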

Additional observations from a re-analysis of the deposited data

Results flagged for a closer look

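Within a group, a mouse was singled out when its gap to the nearest of the others, as a share of the range of the group, passed the critical value of Dixon's ratio test for 4 or 5 mice. This held for 8 of 188 combinations of member and group, in 6 members, which is no more than the 1 in 20 groups that chance gives, so the mice below are described and not read as findings. Hspa5 was far above the rest of its group in 3 groups: at a log2 value of 8.551 in XXF F2 (others 8.225 to 8.31), 8.626 in XYF F8 (others 8.426 to 8.435) and 8.855 in XYM 15 (others 8.337 to 8.48). In XYF F8 Hsp90b1 stood at 9.277 (others 9.002 to 9.039) and Tram1 at 6.663 (others 6.468 to 6.49), so this mouse was singled out for 3 members. Ssr3 was low in XYF F7, at 6.239 (others 6.549 to 6.585), and Sec11c was low in XYF F9, at 7.753 (others 8.018 to 8.069). Eif2ak3 was low in XXM 2, at 4.106 (others 4.563 to 4.748). No explanation was tested for any of them.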

How the results depend on the processing

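None of the 27 differences compared one by one (members called or with the smallest p) changed direction under any alternative run. With the length trend removed, others did: the sign turned in 10 of the 47 members in XYM against XYF, among them Ddit3, and in 10 in the interaction, 8 in XXM against XYM, 8 in males against females, 3 in XX against XY, 1 in XXM against XXF and 0 in XXF against XYF. Without the fold threshold the members called became 1 in XXF against XYF (beside 2.43% of all genes), 4 in XXM against XYM (7.86%), 5 in XX against XY (6.93%), 6 in XXM against XXF (9.5%), 20 in XYM against XYF (39.9%) and 15 in males against females (38.5%), since small differences then count. With the length trend removed they became 1 in XXM against XYM, 1 in XXM against XXF, 2 in XYM against XYF and 1 in males against females, the cause of which was not tested. Over all genes the calls were then 127 higher and 169 lower, 236 and 391, 743 and 835, and 319 and 630, in the same order. A pseudocount of 0.1 gave 1 in XXM against XYM (215 higher and 328 lower over all genes). The fit of XXF and XYF alone, with fewer mice, gave 0 in XXF against XYF (0.62% of all genes). Leaving out each mouse gave 0 to 2 in XXF against XYF, 0 to 2 in XXM against XYM, 0 to 1 in XX against XY, 0 to 1 in XXM against XXF, 4 to 9 in XYM against XYF, 2 to 2 in males against females and 0 to 3 in the interaction. Calls over all genes, higher and lower, moved too (mouse left out named). XXF against XYF had 25 and 32 (F9) to 286 and 564 (F7). XXM against XYM had 20 and 31 (XXM 2) to 551 and 661 (XYM 15). XX against XY had 46 and 102 (F9) to 134 and 384 (F7). XXM against XXF had 132 and 367 (XXM 6) to 191 and 436 (XYM 9). XYM against XYF had 686 and 710 (F6) to 1497 and 1459 (XYM 9). Males against females had 204 and 633 (F6) to 362 and 891 (XYM 9). The interaction had 0 and 0 (F1) to 609 and 1084 (XYM 9). For the 27 differences, filters, a pseudocount of 0.5, rescaling, limma without a trend and voom left each called or not called as it was, though uncalled ones crossed 1 of the thresholds, such as Sel1l in XXM against XYM (adjusted p = 0.103 by voom), and with the length trend removed 8 of the called ones were not called. No paired analysis was possible because the groups share no replicate numbers. Differences under 1.5-fold were left uncalled by the chosen threshold, Trib3 rests on 15 to 48 reads a mouse, and cell composition was not measured apart from the markers.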
